A study of Homo sapiens with 6 samples.

Results

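The 231 pairs of different autosomes were taken as the units of this description, out of 276 pairs when the X and Y chromosomes are included, and the contacts between the chromosomes of each pair (trans contacts) were counted by Hi-C. In Hi-C, cross-linked chromatin is cut, here with BglII, ligated and sequenced, so that each read pair joins positions that lay close together in the nucleus. LNCaP, an established prostate cancer cell line, received 20 nM of a pooled non-targeting siRNA (control siRNA) or 20 nM of a pooled siRNA against CTCF (CTCF siRNA), was split and transfected again after 72 h, and was collected at 144 h. The authors made 2 libraries from control cells and 4 from cells given CTCF siRNA, as far as the labels tell. The labels of 2 of these 4 repeat replicates 1 and 2 with a suffix. The 4 may thus come from 2 biological replicates, which the labels do not settle. The authors merged the libraries of each treatment into 1 map of 40 kb bins. There was thus no replicate, no difference between conditions could be set against the spread between libraries, and every interval below is a 95% interval that covers counting error or the spread over pairs.

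Each chromosome occupies its own territory in the nucleus, and contacts in trans arise mostly where territories touch or intermingle. In human cells small, gene-dense chromosomes are known to lie near the centre of the nucleus and gene-poor ones near its edge. The short arms of the acrocentric chromosomes carry the ribosomal RNA genes, around which nucleoli form, and translocations join parts of different chromosomes, so that contacts between them become as frequent as contacts along 1 chromosome. CTCF is a DNA-binding protein that halts loop extrusion by cohesin within chromosomes.

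The pairs are defined by chromosome number alone, although the classes described below were chosen with earlier results of these data known. For each pair the contacts were summed over bins outside positions 9400001 to 48120000, where the deposited values carry factors that differ from 1, and were divided by the number expected from the product of both chromosomes' trans totals (observed over expected). No bin before position 9400001 of any chromosome entered the maps, so the first 9.4 Mb of every chromosome is not analysed here. Outside those positions chromosome 21 had 0 bins, chromosome 22 had 79, chromosome 19 had 275 and chromosome 20 had 372. Consequently 191 of the 231 pairs reached 1000 contacts in both maps, and the 40 others were 21 pairs with chromosome 21, 16 further pairs with chromosome 22 and the pairs 18-19, 18-20 and 19-20. To measure all members, read pairs were also recovered by dividing out the factors, and these counts over all bins gave all 231 pairs at least 3417 contacts in control siRNA and 9878 in CTCF siRNA. Values from the first set of bins are called outer-bin values, and values from recovered counts over all bins are called all-bin values. All-bin values still lack 121 of the 968 bin positions from 9400001 to 48120000, which had no contact on any chromosome in either map. With all bins the counting interval in control siRNA reached, in the median over pairs, 1.07% of the value to either side, and at most 3.37%.

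The control siRNA map held 26174660 recovered read pairs and the CTCF siRNA map 87657900. Of the autosomal read pairs, 46.8% were trans in control siRNA and 34.8% in CTCF siRNA. The maps also differed in how trans contacts were spread over base composition. Trans contacts per 1 Mb bin in the highest of 10 GC classes were 0.743 times those in the lowest class in control siRNA and 0.867 times in CTCF siRNA. These values count trans contacts only, and coverage with cis contacts included was not computed by GC class. The lower trans share and the shift over GC classes both move with the comparison of conditions, and their part in the results below was not tested.

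Some local trans signal was concentrated in single pairs of 40 kb bins. Among pairs of 1 Mb bins with at least 20 contacts and at least 10 times the expected number in both maps, 7 had over 50% of their contacts in a single pair of 40 kb bins in at least 1 map. The stretches below are the longest identical ones between the 40 kb bins with most contacts, shown for the highest enrichment of the 7 (chromosomes 1 and 2), for the highest share in a single pair of bins (1 and 19) and for one in a protein-coding gene (7 and 21). They are printed in lower case because every letter is shared by both places, and none holds a BglII site. Between chromosomes 1 and 19 (hg19, chr1:121484055-121484122 and chr19:27732056-27732123, both on the plus strand, outside annotated genes) the whole stretch had 68 bases.
Chromosomes 1 and 19: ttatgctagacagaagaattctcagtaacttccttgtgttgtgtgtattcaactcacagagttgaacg
Between chromosomes 1 and 2 the stretch had 445 bases (chr1:148942436-148942880 on the plus strand and chr2:91833421-91833865 on the minus strand, on both chromosomes in introns of non-coding RNA genes annotated as LSP1P5), and its first 120 bases are given.
Chromosomes 1 and 2: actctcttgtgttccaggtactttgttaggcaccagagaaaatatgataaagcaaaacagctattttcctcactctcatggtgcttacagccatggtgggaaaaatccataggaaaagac
Between chromosomes 7 and 21 it had 258 bases (chr7:152083396-152083653 in an intron of KMT2C, which encodes a histone methyltransferase, and chr21:11087324-11087581 in an intron of a long non-coding RNA, both on the plus strand), and its first 120 bases are given.
Chromosomes 7 and 21: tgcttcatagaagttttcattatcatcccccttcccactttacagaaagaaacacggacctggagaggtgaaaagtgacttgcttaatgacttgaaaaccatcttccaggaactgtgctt
The bin pair of chromosomes 1 and 19 held 369 contacts in control siRNA and 800 in CTCF siRNA, of which 98.6% and 98.0% lay in 1 pair of 40 kb bins. Of the 31-base words of the first bin, 37.6% were found in the second for chromosomes 1 and 2, 11.4% for 7 and 21, and 6.34% for 1 and 19. In the other 4 bin pairs the share was 13.99% for chromosomes 1 and 4, 2.40% for 1 and 7, 0.224% for 3 and 10 and 0.144% for 16 and 21. At the 9 rearrangement-like foci described below it ran from 0% to 2.26%, a range that holds the values of 3-10 and 16-21 and ends just under that of 1-7. Whether reads were placed wrongly between such copies was not tested.

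Contacts were most enriched among the gene-rich chromosomes 16, 17, 19, 20 and 22. In all bins each of the 10 pairs within this class lay above the expected number in both maps, with a median observed over expected of 1.16 (95% interval over pairs 1.04 to 1.28) in control siRNA and 1.36 (1.13 to 1.62) in CTCF siRNA. The pairs share chromosomes, so they are not independent. Chromosomes 19 and 22 had the highest value of all 231 pairs, 1.35 (1.32 to 1.39) from 4680 contacts in control siRNA and 1.70 (1.68 to 1.73) from 17133 contacts in CTCF siRNA. Chromosomes 17 and 22 followed in control siRNA with 1.28 (1.25 to 1.31), and in CTCF siRNA they had 1.51 (1.49 to 1.53). Chromosomes 20 and 22 had 1.27 (1.24 to 1.31) and 1.62 (1.60 to 1.65). The intervals of 17-22 and 20-22 overlapped in control siRNA, so their order there is not resolved. Chromosome 16 stood lowest in the class. Its pair with chromosome 17 had 1.03 (1.02 to 1.052) and 1.11 (1.096 to 1.117), and that with chromosome 20 had 1.04 (1.02 to 1.06) and 1.13 (1.11 to 1.14).

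**Figure D1:**
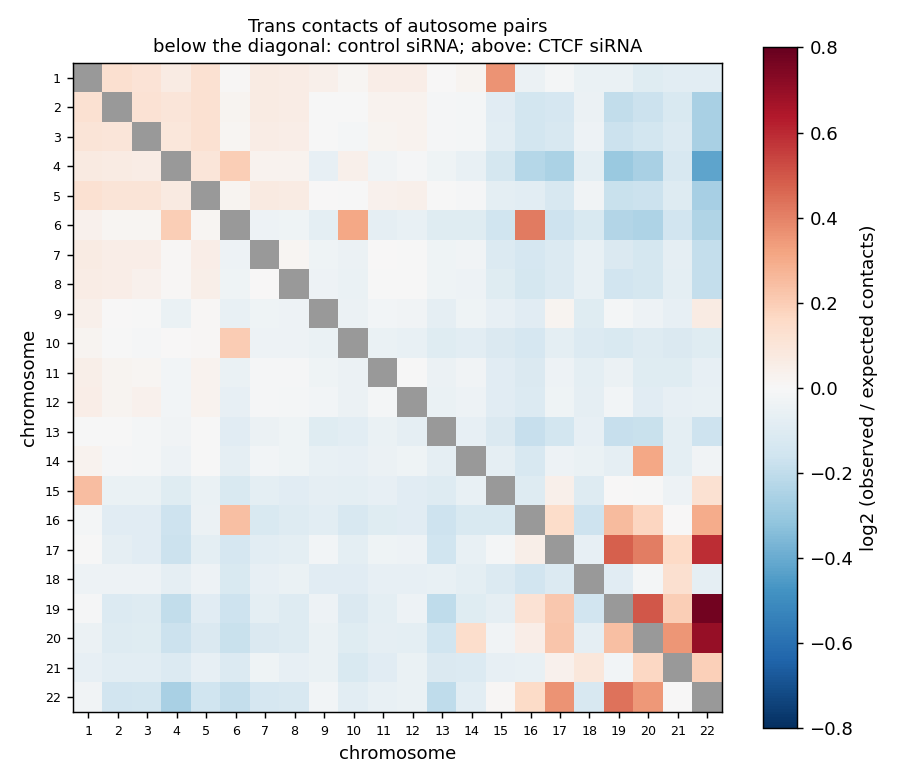
All-bin log2 observed over expected contacts for the 231 autosome pairs, with control siRNA below the diagonal and CTCF siRNA above it (colour scale in log2 units, red above and blue below the expected number, grey diagonal not measured). The gene-rich chromosomes form a red block at the lower right, which reaches 1.70 times the expected number for 19-22 in CTCF siRNA, and single red cells mark pairs such as 1-15, 6-10 and 6-16.

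A value was counted as enriched or depleted when it differed from 1 by at least 1.1-fold with its counting interval off 1. In control siRNA 7 of the 10 gene-rich pairs were enriched, against 5.63% of all 231 pairs, and in CTCF siRNA all 10 were, against 8.23%. The outer-bin values gave 5 gene-rich pairs a value. Their control siRNA values were 1.17 (1.11 to 1.23) for 17-19, 1.11 (1.06 to 1.16) for 17-20, 1.11 (1.0505 to 1.17) for 16-19, 1.06 (1.01 to 1.11) for 16-20 and 0.993 (0.963 to 1.02) for 16-17. Of these 5, 3 were enriched in control siRNA, against 4.19% of the 191 pairs, and 4 in CTCF siRNA, against 5.24%. The medians were 1.11 and 1.22. With chromosome factors fitted to the trans totals all 5 outer-bin pairs were enriched in both maps, against 5.76% and 9.42% of the 191 pairs, and all 10 all-bin pairs, against 8.23% and 9.52% of the 231. Pairs of a gene-rich with a gene-poor chromosome (4, 5, 8, 13 or 18) stood on the other side. All 25 lay below 1 in both maps in all bins, where 171 of all 231 pairs lay in control siRNA. Their medians were 0.901 (0.893 to 0.930) and 0.890 (0.881 to 0.907). With these fitted factors the medians were 0.967 and 0.949 and 3 of the 25 lay above 1 in control siRNA. With the product of totals 13 were depleted in control siRNA, against 7.79% of all pairs, and 18 in CTCF siRNA, against 15.2%. With outer bins 12 of 19 were depleted in control siRNA, against 16.8%, and 15 of 19 in CTCF siRNA, against 19.9%. These depletion counts depended on the expected number. With fitted factors 2 of 25 were depleted in control siRNA and 8 in CTCF siRNA in all bins, against 0.866% and 6.49% of all pairs, and 2 and 5 of 19 in outer bins, against 2.09% and 6.81%. With GC classes in the expected number, described below, the counts were 0 and 2 of 25 in all bins, against 0.866% and 4.76%, and 5 and 7 of 19 in outer bins, against 10.5% and 14.1%. Chromosomes 4 and 22 had the lowest all-bin value of all pairs in both maps, 0.835 (0.821 to 0.849) and 0.745 (0.737 to 0.753). With the product of totals, all 18 all-bin pairs depleted in control siRNA joined a gene-rich chromosome to one outside the class, but only 2 of the 231 pairs were depleted there with fitted factors and 2 with GC classes. In outer bins the depleted pairs fell from 32 to 4 in control siRNA and from 38 to 13 in CTCF siRNA with fitted factors. In all bins no pair within the gene-poor class was enriched or depleted, and its 10 pairs had medians of 0.980 and 0.979.

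**Figure D2:**
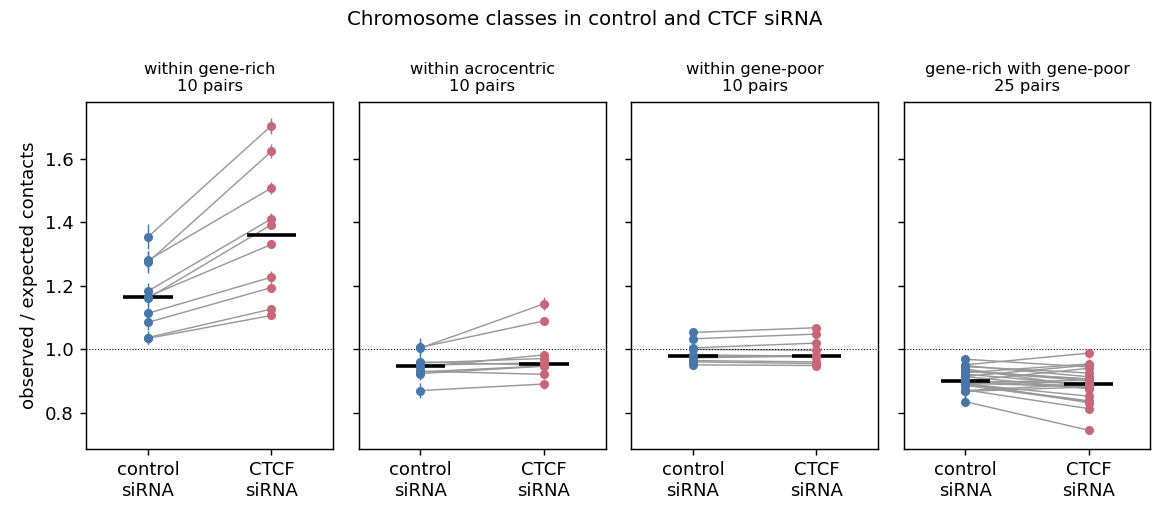
All-bin observed over expected contacts of each pair in control siRNA (blue) and CTCF siRNA (red) for 4 sets of pairs, with thin lines joining a pair's values, bars for 95% counting intervals, thick black lines for medians and a dotted line at 1. Every gene-rich pair lies above 1 and higher in CTCF siRNA. Every pair of a gene-rich with a gene-poor chromosome lies below 1, where 171 of all 231 pairs lie in control siRNA.

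The same pair values were also arranged chromosome by chromosome, which is not a separate measurement. For each autosome the median all-bin value with its gene-rich partners was divided by that with its gene-poor partners. For the gene-rich chromosomes a ratio above 1 follows from the pair values already given. The ratio was 1.43 for chromosome 22, 1.301 for 19, 1.27 for 20, 1.26 for 17 and 1.18 for 16 in control siRNA, and 1.79, 1.59, 1.54, 1.49 and 1.299 in CTCF siRNA. Chromosomes 21 and 15, which are not in the gene-rich class, came next in control siRNA with 1.049 and 1.048. With 4.76 coding genes per Mb, chromosome 21 lies under chromosomes 5 (4.89) and 8 (4.84) but was not placed in the gene-poor class. Its median with gene-rich partners was 1.004 in control siRNA and 1.14 in CTCF siRNA. Chromosome 11 has 9.76 coding genes per Mb, more than chromosomes 16, 20 and 22, but was not placed in the gene-rich class. Its ratios were 0.965 and 0.972. Classes set by gene density alone were not tested. Chromosome 4 was lowest, at 0.892 and 0.835. Over the 22 autosomes log2 of this ratio rose with GC content (Pearson r 0.944, Spearman rho 0.878 in control siRNA; 0.923 and 0.857 in CTCF siRNA) more closely than with protein-coding genes per Mb (0.668 and 0.663; 0.654 and 0.599). It fell with chromosome length (r -0.732 and -0.783) and with BglII sites per Mb (-0.898 and -0.885). These are descriptions over 22 chromosomes whose values come from the same maps, and GC content, length and site density vary together. The gene-rich class is made up of the 5 chromosomes of highest GC content. By coding genes per Mb chromosome 11 ranks 3 and chromosome 20 ranks 6. Since the ratio is built from this class, its closer relation to GC content is in part set by the choice of classes. Genes per Mb were counted over the whole chromosome length, assembly gaps included, whereas GC content and BglII sites were counted over called bases. Gene density is therefore lowered for chromosomes with long gaps, and its correlation is not on an equal footing with that of GC content. On this measure chromosome 22, first for the ratio, had 8.77 coding genes per Mb, beside 8.68 for chromosome 20 and 8.39 for chromosome 1. The ratio of chromosome 1 was 0.949. The GC content of chromosomes 22 and 19 was 47.99% and 48.4%, and that of chromosome 1 was 41.7%.

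**Figure D3:**
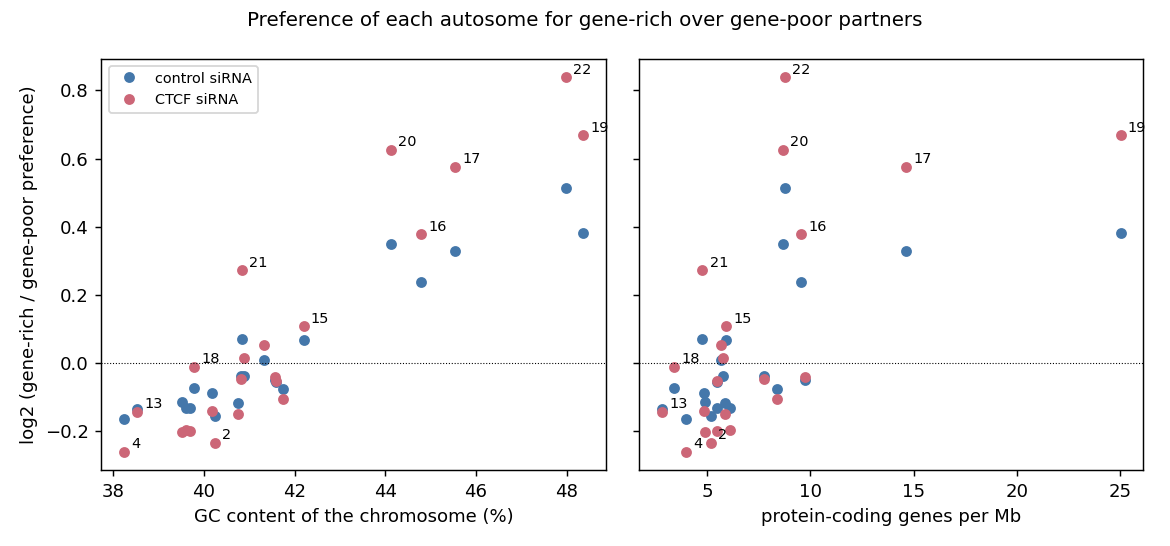
Preference of each of 22 autosomes, as log2 of the median observed over expected with gene-rich partners over that with gene-poor partners, against GC content (left, %) and protein-coding genes per Mb (right), in control siRNA (blue) and CTCF siRNA (red). Chromosomes 16, 17, 19, 20 and 22 stand above all others in both maps, and chromosome 22 is highest. Gene density was counted over whole chromosome lengths with assembly gaps, which lowers it for chromosome 22.

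Trans contacts also sorted by base composition. In 1 Mb bins sorted into 10 GC classes, contacts in trans between bins of the highest class (GC 46.9% to 59.0%) were 1.55 times the expected number in control siRNA and 1.77 times in CTCF siRNA. Between bins of the lowest class (33.5% to 35.6%) they were 1.119 and 1.17 times, and between the lowest and the highest class 0.803 and 0.704 times. Of the 1 Mb bins of chromosome 22, 88.9% lay in the highest 2 classes, against 70.2% for chromosome 19, 56.0% for 20, 55.1% for 17 and 44.3% for 16, and 0.559% for chromosome 4. When the expected number included the GC classes of both bins, the all-bin median of the gene-rich pairs was 1.04 in control siRNA and 1.17 in CTCF siRNA. The outer-bin median was then 0.998 and 1.06, against 1.11 and 1.22 with the product of totals alone. In outer bins the excess of the control siRNA map was thus not present under this expectation. The GC factors were multiplied onto the product of totals, which favours pairs of large chromosomes. GC classes joined with fitted chromosome factors were not computed, so the part of GC content alone is not shown. The GC class factors were computed from the same contacts, gene-rich pairs included. Part of the excess of these pairs thus enters the expected number itself. Of the gene-rich pairs, 2 of 10 in all bins were then enriched in control siRNA and 6 in CTCF siRNA, against 3.46% and 6.49% of all pairs. In outer bins 0 and 2 of 5 were, against 1.57% and 3.66%. Chromosomes 17 and 22 kept 1.118 and 1.23, and chromosomes 20 and 22 kept 1.11 and 1.32. GC content goes with active chromatin and with the yield of sequencing alike, and these could not be told apart.

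Chromosomes 18 and 19 are both small and differ in gene density, with 3.41 and 25.03 coding genes per Mb. With chromosomes 16, 17, 20 and 22, chromosome 19 had all-bin values of 1.08 to 1.35 in control siRNA and 1.19 to 1.70 in CTCF siRNA. Chromosome 18 had 0.899 to 0.951 and 0.893 to 0.988 with the 5 gene-rich chromosomes, so the ranges did not overlap in either map. With fitted factors the values of chromosome 18 with 17, 20 and 22 were above 1 in control siRNA, at 1.01, 1.04 and 1.01, and in CTCF siRNA only 16-18 stayed below 1, so the direction of these pairs against the expected number is not settled. With gene-poor partners the order was the other way. The median was 0.901 for chromosome 19 and 0.962 for chromosome 18 in control siRNA, and 0.882 and 0.958 in CTCF siRNA. The pair 18-19 itself had 0.901 (0.876 to 0.926) and 0.940 (0.924 to 0.956).

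The acrocentric chromosomes 13, 14, 15, 21 and 22 did not stand out as a class. Their 10 pairs had all-bin medians of 0.947 (0.924 to 1.004) in control siRNA and 0.954 (0.921 to 1.09) in CTCF siRNA, close to the medians of all pairs, 0.966 and 0.966. None was enriched in control siRNA, and 1 was in CTCF siRNA, 21-22 with 1.14 (1.123 to 1.16) from 12161 contacts. With fitted factors 21-22 was enriched in control siRNA as well (1.11), and in CTCF siRNA 21-22 (1.26) and 15-22 (1.18) were. These are 1 and 2 of 10 pairs, where 8.23% and 9.52% of all pairs were enriched. In control siRNA 21-22 had 1.004 (0.972 to 1.04) and 15-22 had 1.01 (0.985 to 1.03), and the lowest was 13-22 with 0.870 (0.846 to 0.894). Both pairs at the top hold chromosome 22, which is also in the gene-rich class. In outer bins only 13-14, 13-15 and 14-15 had a value, at 0.908 (0.889 to 0.927), 0.883 (0.864 to 0.903) and 0.941 (0.926 to 0.956) in control siRNA. The median of these pairs lay at 0.908 in control siRNA and 0.931 in CTCF siRNA with the product of totals, and at 0.996 and 1.02 with chromosome factors fitted to the trans totals. A pair of large chromosomes is favoured by the product of totals, since a chromosome has no trans contact with itself. The 21 pairs within chromosomes 1 to 7 had an all-bin median of 1.046 with the product and 1.01 with fitted factors in control siRNA. With fitted factors the all-bin acrocentric medians were 1.01 and 1.02.

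The short arms with the ribosomal RNA genes lie mostly in assembly gaps and could not be measured, so the first and the last 10 Mb of the long arms were compared. Between the first 10 Mb of both chromosomes the 10 acrocentric pairs had a median of 1.04 in control siRNA (range 0.685 to 1.29) and 1.06 in CTCF siRNA (0.738 to 1.49). Between the last 10 Mb of both the medians were 0.957 and 1.04, and between the first of one and the last of the other 0.960 and 0.975. The ranges of these groups overlapped in both maps, with as few as 99 contacts in a cell. Chromosomes 21 and 22 were uneven along their arms. The last 10 Mb of chromosome 21 had 1.59 (1.42 to 1.77) with the first 10 Mb of chromosome 22 and 1.51 (1.36 to 1.68) with its last 10 Mb in control siRNA. The first 10 Mb of chromosome 21 had 0.685 (0.586 to 0.796) and 0.672 (0.581 to 0.774) with the same regions.

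Most of the other pairs enriched in control siRNA held local foci of contacts. Of the 13 all-bin pairs enriched in control siRNA, 7 were gene-rich, 5 held a rearrangement-like focus and 1 was 20-21, with 1.124 (1.0995 to 1.15). With fitted factors 18-21 (1.17 and 1.198) and 17-21 (1.11 and 1.21) were enriched in both maps as well, without such a focus. In outer bins 1-5 was enriched without one, at 1.103 in both maps, but in all bins with fitted factors it had 1.007 and 1.0097. A rearrangement-like focus was a pair of 1 Mb bins with at least 20 contacts and at least 10 times the expected number in both maps, neighbours at 3 times or more, and at most 50% of its contacts in 1 pair of 40 kb bins. Of 76 such 10-fold bin pairs in 22 pairs of chromosomes, 50 met these conditions, in 9 pairs of chromosomes. No karyotype was used, so the word rearrangement-like describes the contacts only.

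The focus farthest above the expected number in control siRNA joined chr6:42000001-43000000 to chr16:72000001-73000000. It held 340 contacts in control siRNA, 123 times the expected number (110 to 136), and 1812 in CTCF siRNA, 194 times (185 to 203). At each focus the 40 kb bins with most contacts were picked in CTCF siRNA, and genes named from them mark those bins only. Here these bins held 97 of the 1812 contacts. They hold GUCA1A and GUCA1B, which encode activators of retinal guanylate cyclase, on chromosome 6. On chromosome 16 they hold DHODH, an enzyme of pyrimidine synthesis, and TXNL4B. At 11 to 15 Mb from the focus the contacts were still 2.04 and 2.58 times the expected number. The bins within 10 Mb held 11.4% of the contacts of the pair in control siRNA and 17.3% in CTCF siRNA. Outside them the pair stood at 1.09 and 1.15, against 1.18 and 1.34 as a whole. Counted as the median over 5 Mb blocks, 6-16 had 0.977 and 0.940, a fold of 0.962, so both its enrichment and its rise rested on a part of the blocks. The chromosome 6 side lies within the positions left out of the outer bins, where the pair had 1.051 (1.04 to 1.07) in control siRNA.

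Chromosomes 1 and 15 met at chr1:86000001-87000000 and chr15:77000001-78000000, with 356 contacts or 48.8 times the expected number (43.9 to 54.1) in control siRNA and 2064 or 99.04 times (94.8 to 103) in CTCF siRNA. The bins with most contacts hold DDAH1, which breaks down an inhibitor of nitric oxide synthase, and PSTPIP1 with TSPAN3. As a whole 1-15 had outer-bin values of 1.23 (1.22 to 1.23) and 1.33 (1.33 to 1.34), and 6-10 had 1.23 (1.22 to 1.24) and 1.36 (1.35 to 1.37). These were the highest 2 of the 191 pairs in control siRNA, where their intervals overlap and their order is not resolved. The focus of 6-10 lay at chr6:160000001-161000000 and chr10:96000001-97000000, at 40.8 (35.3 to 46.9) and 49.2 times (45.5 to 53.0), in bins with SOD2, the mitochondrial superoxide dismutase, and WTAP, a part of the RNA methylation complex. A stronger bin pair of 6-10, at chr6:92000001-93000000 and chr10:103000001-104000000, had 52.4 and 92.9 times the expected number but missed the condition on neighbours in control siRNA (2.75). Chromosomes 6 and 10 met in 10 bin pairs that met all conditions, more than any pair but 6-16 with 19. Counted as the median over 5 Mb blocks instead of the sum, 6-10 had an outer-bin value of 0.986 in control siRNA and 0.9903 in CTCF siRNA, so its excess sat in a part of the blocks.

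Chromosomes 4 and 6 met at chr4:98000001-99000000 and chr6:86000001-87000000, with 289 contacts or 72.5 times the expected number (64.4 to 81.4) in control siRNA and 520 or 55.7 times (51.0 to 60.7) in CTCF siRNA. This was the one focus whose value was lower in CTCF siRNA with an interval off 1, at 0.768-fold (0.664 to 0.890). The 40 kb bins with most contacts, in STPG2 on chromosome 4, held 7 of the 520 contacts in CTCF siRNA. The neighbouring bin pair, with chromosome 6 at 87000001 to 88000000, had 95.5 and 96.2 times the expected number, a fold of 1.01 whose interval (0.884 to 1.15) includes 1. Chromosomes 4 and 10 met at chr4:96000001-97000000 and chr10:94000001-95000000, at 24.04 (19.3 to 29.6) and 35.2 times (31.6 to 39.1). The 40 kb bins with most contacts held 11 of the 349 contacts in CTCF siRNA. They lie in the netrin receptor gene UNC5C and in the bin of the retinoic acid hydroxylases CYP26A1 and CYP26C1 and of EXOC6. The adjoining bin pair, with chromosome 10 at 95000001 to 96000000, had 70.8 and 100.8 times the expected number but missed the condition on neighbours in CTCF siRNA (2.98). Its 40 kb bins with most contacts hold UNC5C on chromosome 4 and CEP55 and MYOF on chromosome 10. Chromosomes 14 and 20 met at chr14:28000001-29000000 and chr20:24000001-25000000, in bins without coding genes, at 24.2 (20.1 to 28.8) and 48.3 times (44.7 to 52.1). Outside 10 Mb of the named focus most of the excess of 1-15 and 4-6 remained in all bins. In control siRNA 1-15 had 1.155 there and 1.19 as a whole, and 4-6 had 1.132 and 1.145. The pair 6-10 had 1.123 and 1.15, but its stronger bin pair at chr6:92000001-93000000 lies outside that distance and still counted. With all 5-fold bin pairs left out, the control siRNA values were 1.148 for 1-15, 1.143 for 4-6 and 1.084 for 6-10. The last of these is under the 1.1-fold threshold. In the pair 4-10 the value over all contacts was 1.004 and 1.03 in all bins, so a focus did not always make the whole pair enriched.

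The other 3 foci lay near an assembly gap of at least 50 kb on at least 1 of their chromosomes. Those of 1-4 (chr1:142000001-143000000 and chr4:49000001-50000000) touched gaps on both chromosomes, and those of 1-2 (chr1:149000001-150000000 and chr2:91000001-92000000) lay 116 and 205 kb from one. That of 1-16 (chr1:146000001-147000000, with NBPF12, and chr16:70000001-71000000, with HYDIN, a gene of motile cilia) lay 56.7 kb from a gap on chromosome 1. These foci were 96.3, 55.0 and 67.7 times the expected number in control siRNA. At 11 to 15 Mb their values were 1.03, 1.07 and 1.096, and those of 14-20 and 4-10, whose foci lie over 1 Mb from any such gap, were similar at 1.03 and 1.098. The values there were 1.26 for 4-6, 1.41 for 1-15 and 1.45 for 6-10. Whether the foci near gaps are joined chromosomes or sequence missing from the assembly was not tested.

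**Figure D4:**
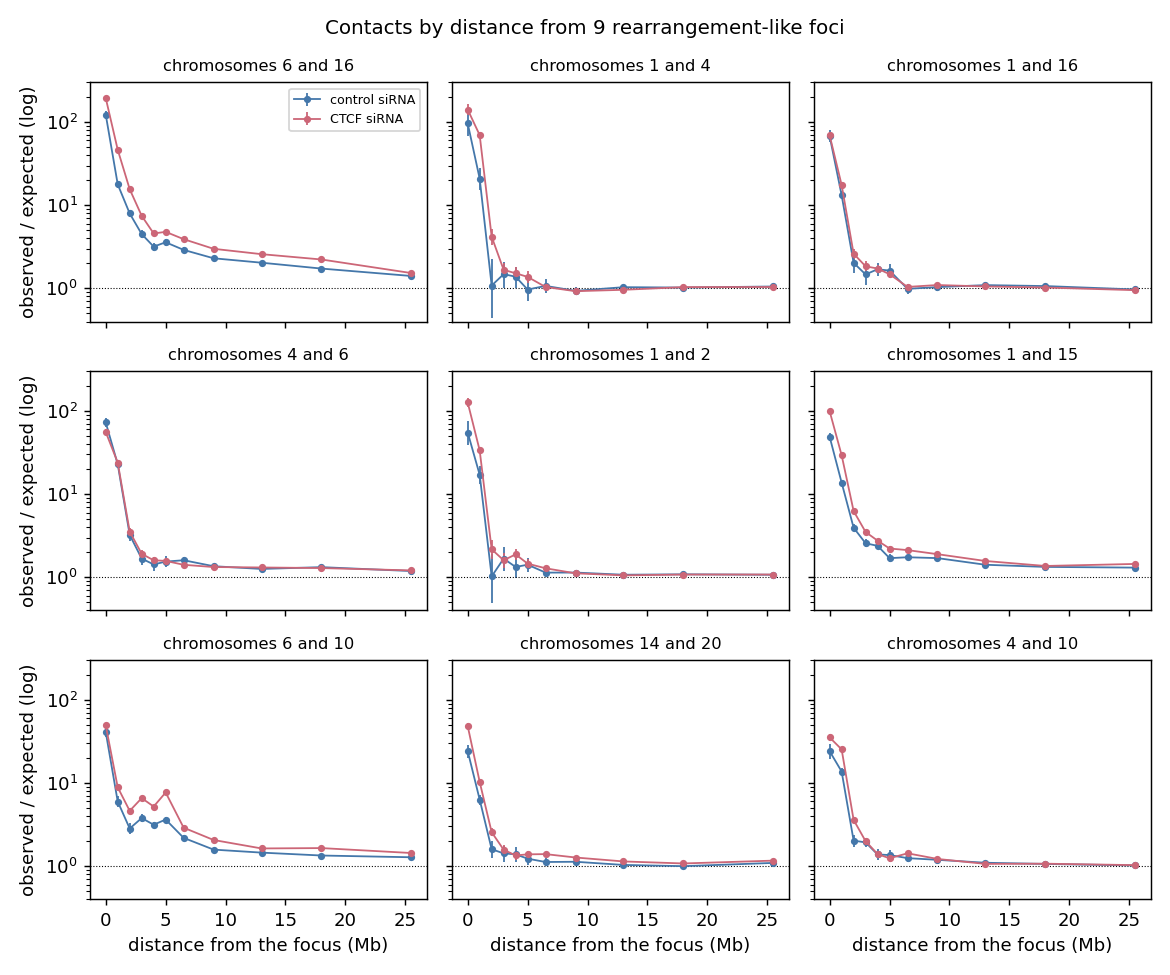
Observed over expected contacts (log axis) against distance from the centre of each of 9 rearrangement-like foci in Mb, in control siRNA (blue) and CTCF siRNA (red), with bars for 95% counting intervals and a dotted line at 1. The value at 6-16 falls from 123 at the centre to 2.04 at 11 to 15 Mb in control siRNA, whereas that at 1-4 is 1.03 there.

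In the CTCF siRNA map most values lay farther from 1. In all bins 51 of the 60 pairs above 1 in control siRNA were higher in CTCF siRNA, and 115 of the 171 pairs below 1 were lower. In outer bins these counts were 25 of 40 and 85 of 151. The SD over pairs of log2 observed over expected was 0.0967 in control siRNA and 0.152 in CTCF siRNA, and 0.0947 and 0.130 over the 191 outer-bin pairs. The order of pairs was much the same in both maps (Pearson r 0.956, Spearman rho 0.947 across 231 pairs, which share chromosomes), and the slope of the CTCF siRNA on the control siRNA log2 value was 1.499. The highest partner was the same chromosome in both maps for 17 of 22 autosomes and the lowest for 16.

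**Figure D5:**
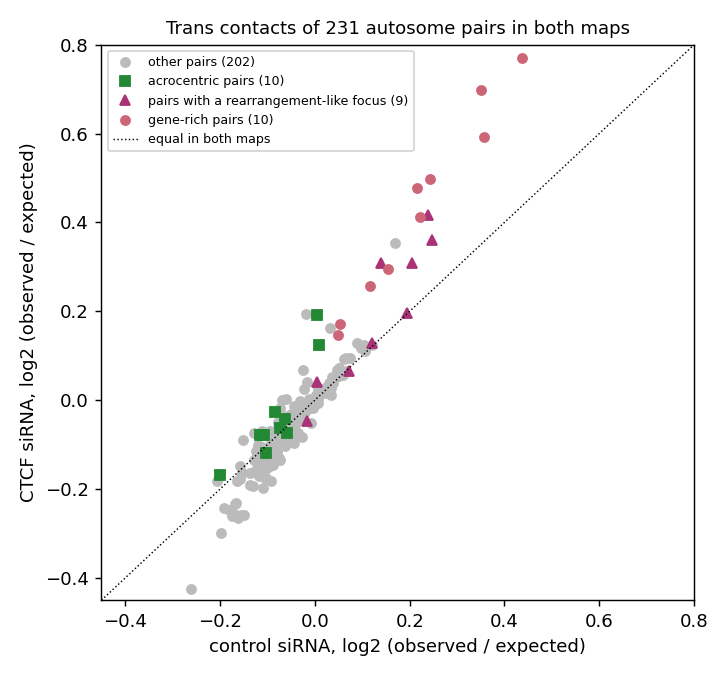
All-bin log2 observed over expected contacts in CTCF siRNA (vertical) against control siRNA (horizontal) for 231 autosome pairs, with gene-rich pairs in red, acrocentric pairs in green, pairs with a rearrangement-like focus in purple and others in grey, and a dotted line where both maps are equal. The 10 gene-rich pairs lie above the line, whereas 115 of the 171 pairs below 0 in control siRNA lie under it.

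A pair was counted as higher or lower after CTCF siRNA when its observed over expected changed by at least 1.1-fold with the interval of the fold off 1. In outer bins 5 of 191 pairs (2.62%) were higher and 0 (0%) were lower. The 5 were 17-20 at 1.197-fold (1.14 to 1.26), 14-20 at 1.18 (1.14 to 1.22), 17-19 at 1.17 (1.11 to 1.24), 16-20 at 1.1206 (1.07 to 1.18) and 6-10 at 1.102 (1.09 to 1.11). The rise of 6-10 fell short of 1.1-fold with fitted factors (1.098), in all bins (1.07), with balanced bins (1.09), without 5-fold bin pairs (1.0495) and as the median of 5 Mb blocks (1.004). That of 16-20 fell short in all bins (1.09) and with GC classes (1.07). The largest falls in value were 3-22 at 0.923-fold (0.861 to 0.989), 2-22 at 0.932 (0.873 to 0.996) and 1-22 at 0.939 (0.887 to 0.994), which did not reach 1.1-fold. The 5 gene-rich pairs had a median of 1.1206-fold, with 3 of 5 higher, and the 3 acrocentric pairs had 1.02-fold, with none higher.

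In all bins 13 of 231 pairs (5.63%) were higher and 1 (0.433%) was lower. Of the 13, 8 were gene-rich, with a median over the 10 gene-rich pairs of 1.16-fold (1.09 to 1.26 over pairs). The largest were 20-22 at 1.27-fold (1.24 to 1.31) and 19-22 at 1.26 (1.22 to 1.3003), followed by 17-19 at 1.1995 (1.17 to 1.23). Chromosome 21 was in 3 of the other 5, with 1.16-fold (1.13 to 1.196) for 19-21, 1.14 (1.098 to 1.18) for 21-22 and 1.14 (1.11 to 1.17) for 20-21. The remaining ones were 6-16 at 1.13 (1.119 to 1.14) and 14-20 at 1.124 (1.11 to 1.14), both with a rearrangement-like focus. The pair that was lower was 4-22 at 0.892-fold (0.874 to 0.910), between the chromosome of lowest GC content and one of the 2 chromosomes of highest GC content. Acrocentric pairs had a median of 1.02-fold (0.9897 to 1.08), and gene-poor pairs 0.999-fold (0.996 to 1.01). Pairs of a gene-rich with a gene-poor chromosome had 0.975-fold (0.958 to 0.993). The count of gene-rich pairs that were higher was 6 of 10 with fitted factors, against 4.76% of all pairs, and 5 of 10 with GC classes in the expected number, against 4.33%, where their median was 1.0989-fold. With GC classes 20-22 changed by 1.19-fold, 19-22 by 1.15-fold and 4-22 by 0.946-fold.

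Most foci were also higher in CTCF siRNA. The fold of observed over expected at the 9 rearrangement-like foci, 1 bin pair for each pair of chromosomes, had a median of 1.47, and 7 had an interval above 1, from 1.205-fold (1.03 to 1.42) for 6-10 to 2.30-fold (1.65 to 3.29) for 1-2. Over all 50 rearrangement-like bin pairs the median was 1.62-fold (range 0.768 to 3.59), 35 had an interval above 1 and 1 below. These 50 are not independent, since 19 were neighbouring bin pairs of 6-16 and 10 were in 6-10. Bin pairs of 10-fold that failed the rule varied as well, with 2.16-fold (1.43 to 3.35) for 7-17 and 1.13-fold (0.996 to 1.28) for 1-19. The share of all 1 Mb bin pairs that rose was not computed, so a rise particular to these foci is not shown. The 10 bin pairs of 6-10 ranged from 1.07-fold to 3.52-fold. The named focus of 1-16 changed by 1.02-fold (0.845 to 1.24), for which no difference was detectable at this depth. The trans share of autosomal read pairs was 12.1 percentage points lower in the CTCF siRNA map. For single chromosomes the share was taken over read ends, where a cis read pair counts at both ends. This share was lower on each of the 22 autosomes, from 42.8% to 24.4% on chromosome 22 and from 48.4% to 44.4% on chromosome 4. The expected numbers at the foci come from trans contacts alone. How far the lower trans share goes with the wider spread of values, or with the rise at the foci, was not tested. With 1 map per condition the effect of the siRNA and a difference between library preparations cannot be told apart.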

How the data were processed

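Hi-C contacts were measured in LNCaP cells after control siRNA or CTCF siRNA. According to the study's methods the authors aligned reads to hg19 with Bowtie (1.1.0 in the submitters' processing notes), assessed artefact levels with HiCUP, tagged duplicates with Picard (1.121), pooled the libraries of each condition and estimated bias factors at 40 kb. The deposited values were read pairs multiplied by a factor that depends on position along the chromosome between 9400001 and 48120000 and is 1 beyond. Dividing by this factor gave whole counts for 99.9993% and 99.9978% of the values there, within 0.0101 or 0.05% of a whole number.

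The members and lists were chosen with earlier results of these data known. Contacts were summed for each of the 231 autosome pairs, each bin pair once, and divided by an expected number. This was the product of both trans totals, scaled so that the expected numbers of all pairs add up to the observed contacts. Pairs with at least 1000 contacts in both maps had a value. Observed values have exact Poisson 95% intervals with the expected number taken as fixed, folds have exact conditional intervals, and medians have order-statistic intervals over pairs. Read pairs are not independent molecules, so intervals cover counting error only. With 1 map per condition no p-value was computed. Pairs were named from the fixed classes, the rearrangement-like pairs and the highest and lowest values. The calculation was tested on simulated data. The design assumed that most bins of each chromosome lie outside the positions with factors, which was not so for chromosomes 18 to 22, and all bins were therefore added after the data were seen. Alternatives changed the expected number, the bins, the threshold and the contacts left out.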

Additional observations from a re-analysis of the deposited data

How the results depend on the processing

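No paired analysis was possible because each condition had only a merged map, and for the same reason no library could be left out. Of 114 alternative values for the 10 outer-bin summaries, 90 moved by less than the spread over pairs or stayed within 1.5 times the count, 23 moved more and 1 reversed. With fitted chromosome factors the gene-rich median was 1.25 in control siRNA and 1.38 in CTCF siRNA, the acrocentric median 0.996 in control siRNA and, reversed, 1.02 in CTCF siRNA, and the SD of log2 values in control siRNA 0.0832. With GC classes in the expected number the gene-rich median was 1.06 in CTCF siRNA and its fold 1.07, and the SDs were 0.0795 and 0.0997. With all bins the acrocentric control siRNA median was 0.947 for recovered counts and 0.955 for values as deposited, the pairs higher after CTCF siRNA numbered 13 and 13, those lower 1 and 2, and the CTCF siRNA SD was 0.152 and 0.157. A laxer fold threshold, 5% instead of 10% from 1, gave 17 pairs higher and 8 lower, and one of 1.2 gave 0 higher. The median of 5 Mb blocks gave 2 lower. Leaving out 5-fold bin pairs gave SDs of 0.0831 and 0.110, and balanced bins a CTCF siRNA SD of 0.144. Of the 191 outer-bin pairs, 8 were enriched and 32 depleted in control siRNA and 10 and 38 in CTCF siRNA, which became 11, 4, 18 and 13 with fitted factors, 3, 20, 7 and 27 with GC classes and 3, 35, 6 and 46 with the median of 5 Mb blocks. The cause was not tested. A single pair's value was counted as reversed only where it was enriched, depleted, higher or lower as reported and then crossed 1. In outer bins 6 of 648 alternative values of named pairs reversed. These were 16-19 in control siRNA with GC classes (0.998), 6-10 with the median of 5 Mb blocks (0.986 and 0.9903), 16-18 with fitted factors (1.02 and 1.02) and 17-18 in control siRNA with fitted factors (1.01). In all bins 5 of 615 reversed, which were 6-16 (0.977, 0.940 and a fold of 0.962) and 6-10 (0.989986 and 0.987) with the median of 5 Mb blocks. Counting every crossing of 1, whether or not the reported value was enriched or depleted, 25 of 432 observed over expected values crossed in outer bins, 11 of them with fitted factors, and 38 of 410 in all bins, 19 of them with fitted factors. The alternatives over all bins were chosen after seeing the data. Depth limits pairs of small chromosomes most, with 3417 contacts for 18-22 in control siRNA.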
